A study of Mus musculus with 12 samples.

Results

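The genes described here are the autosomal genes whose transcript level differed, or was tested for a difference, between male and female livers of wild-type (WT) mice. The WT livers were 7 of the 12 livers of the series: 3 from males and 4 from females. All mice were C57BL/6N, 8 to 10 weeks old and untreated, and were bled out under anaesthesia before the liver was taken. The other 5 livers came from littermates with a germ-line deletion of Idh2 (IDH2 KO, idh2-/-), the mitochondrial NADP-dependent isocitrate dehydrogenase. They were 2 males and 3 females, and are used only for the same contrast in separate mice. The WT livers were chosen by the genotype and sex in the sample labels and every autosomal gene was taken. Of 36228 rows in the count table, 32554 lay on an autosome, and 6953 of those had enough reads in the WT livers to be tested. X and Y genes were left out of every count below.

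Sex differences of the mouse liver are known mainly from the pattern of growth hormone release, which comes in widely spaced pulses in males and more evenly in females. The hormone acts on hepatocytes through the growth hormone receptor, JAK2 and the transcription factor STAT5b, and repressors such as BCL6 in males and CUX2 in females hold back the genes of the other sex. The genes best known for such differences are secreted proteins (major urinary proteins, serpins, complement), enzymes of steroid metabolism, and the cytochromes P450, sulfotransferases and transporters that handle drugs and other foreign compounds.

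Each library was RNA of 1 liver from 1 mouse, and what libraries with the same number share is not stated, so p-values measure the spread between these mice. The WT males held 17055853 to 18556690 reads and the WT females 20611418 to 24084696, so the sexes did not overlap in depth (exact permutation test, two-sided p = 0.0571, the smallest that 3 against 4 livers can give). Thinning every library to the depth of the smallest, an alternative added after seeing the data, gave 52 genes higher and 54 lower in males. Mitochondrial transcripts took 26.5% to 49.8% of the reads in males and 22.8% to 45.5% in females, and were lowest in the libraries numbered 2 of both sexes. The median rank correlation of WT male 2 with the other WT livers was 0.9063, against 0.9245 to 0.9372 for the others. Without both libraries numbered 2, 73 genes were higher and 68 lower in males, against 52 and 55 with them. Of the 6 hepatocyte markers 5 were tested and none was called (1 at unadjusted p under 0.05), with a summed level of 110620 to 142350 CPM in males and 142210 to 212050 CPM in females. The table lists 0 reads in all WT livers for Cps1, an enzyme that most hepatocytes make, and for 17692 autosomal rows in all, so a 0 across all libraries says nothing of absence from the liver.

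The sex contrast in the WT livers ran in both directions at similar size. By the quasi-likelihood test of edgeR (p adjusted after Benjamini and Hochberg, under 0.05), 52 of the 6953 autosomal genes were higher in WT males (0.748%) and 55 were lower (0.791%), and in all 107 the males and females did not overlap. Of all tested genes, 347 had every male above every female and 400 every male below. The median log2 fold change of all tested genes was 0.01, males over females. The called genes moved far: 13 of the higher and 19 of the lower genes changed more than 10-fold, and 7 and 3 changed less than 2-fold. Leaving out WT female 4, WT male 3 or WT female 1 lowered the counts most, to 30, 31 and 32 genes higher and 35, 28 and 39 lower in males. Secreted proteins and enzymes of steroid and drug metabolism, taken as listed families, were 274 of the tested genes. They held 25 of the 52 genes higher and 25 of the 55 lower in males, so 18.2% of them were called. The members and families were known from earlier results of these data. Some members, such as Cyp4a12b and Cyp2b13, also passed the filter only through the sex where they were high. These shares are therefore a description. In whole tissue, fewer cells of a type and less RNA per cell cannot be told apart.

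**Figure D1:**
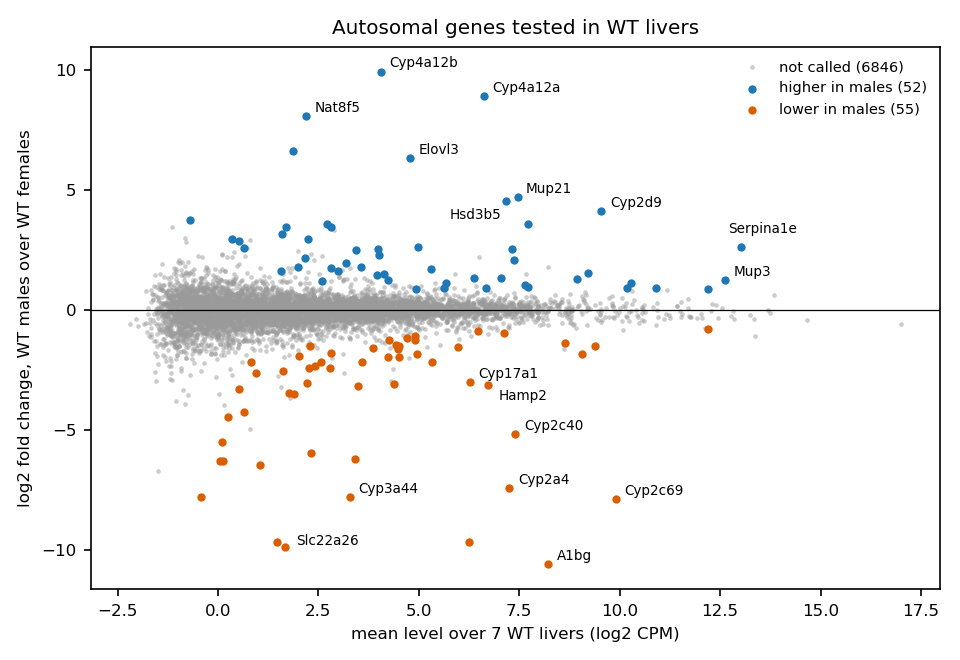
Each point is 1 of the 6953 autosomal genes tested, by its mean level over the 7 WT livers (log2 CPM, x axis) and its log2 fold change in WT males over WT females (y axis). Blue points are the 52 genes higher and orange points the 55 genes lower in males at edgeR adjusted p under 0.05. Grey points were not called, and called points lie both at low mean levels, such as Nat8f5, and at high ones, such as Mup3. The fitted values of Slc22a26, Cyp2b13 and 4930520P13Rik, with no read in males, depend on the prior count.

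Levels below are in CPM, the reads of a gene per 1000000 reads of its library after TMM scaling, given for WT males 1 to 3 and then WT females 1 to 4. Log2 fold changes are males over females with their standard error, and adjusted p-values are edgeR's. Gene positions are those of GENCODE M21 on GRCm38. The genes of largest change stood close to on or off between the sexes. Cyp4a12a (chr4:115299046-115332815, plus strand), a cytochrome P450 that hydroxylates fatty acids at the end of the chain, had 183, 283 and 223 CPM in the WT males, against 1.14, 0.314, 0.295 and 0.187 CPM in the WT females (log2 fold change 8.92 ± 0.49, adjusted p = 2.98e-06). Its neighbour Cyp4a12b had 30.6, 45.7 and 39.9 CPM in the WT males, against 0.156, 0, 0 and 0 CPM in the WT females. The 3 reads in females together gave a ratio of 1190-fold (95% exact interval 406 to 5760), counting error only, and the adjusted p was 2.61e-06. Every male lay above every female for both genes. Of the 50-base windows of their transcripts 48.9% and 49.4% also occur in another gene, mainly in each other, so how the reads divide between them is uncertain. Nat8f5, of a family of N-acetyltransferases, had 12.1, 13.6 and 6.09 CPM in the WT males, against 0, 0, 0.147 and 0 CPM in the WT females. The ratio was 334-fold (95% exact interval 114 to 1620), with 634 reads in males and 3 in females. Elovl3 (chr19:46131897-46135694, plus strand), which elongates very long-chain fatty acids, had 51.2, 88.7 and 49.3 CPM in the WT males, against 0.519, 1.36, 0.491 and 0.655 CPM in the WT females (log2 fold change 6.33 ± 0.39, adjusted p = 3.42e-06).

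In the other direction, A1bg (chr15:60896859-60923012, minus strand), a plasma glycoprotein of the immunoglobulin superfamily, had 0.472, 0.362 and 0.134 CPM in the WT males, against 396, 498, 228 and 967 CPM in the WT females (log2 fold change -10.60 ± 0.71, adjusted p = 3.23e-05). It was under 1 CPM in every male, and no female came near that level. Slc22a26 (chr19:7781041-7802667, minus strand), of the organic anion transporter family, had no read in any WT male and 3.84, 8.92, 5.31 and 4.26 CPM in the WT females. Set against 3 reads over the males, it was at least 112-fold lower in males (adjusted p = 0.000288). Cyp2b13 (chr7:26061497-26096197, plus strand) likewise had no read in the males and 4.36, 3.73, 6.34 and 4.77 CPM in the females, at least 89-fold lower in males (adjusted p = 0.00013). These bounds cover counting error only. The calls of Cyp4a12a, Cyp4a12b, Nat8f5, Elovl3, A1bg, Slc22a26 and Cyp2b13 held with each of the 7 livers left out.

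The promoters below belong to the 3 genes of largest change in each direction that have an entry among RefSeq promoters (GRCm38.p6, 250 bases before to 50 after the transcript start), and are shown because STAT5 is the factor by which growth hormone is known to reach such genes. Transcript starts are RefSeq's and can differ from the gene bounds of GENCODE. Capitals mark TTCNNNGAA, the STAT5 motif, which reads the same on both strands. The first 3 genes were higher and the last 3 lower in WT males.
Nat8f5, chr6:85820923-85821222, minus strand: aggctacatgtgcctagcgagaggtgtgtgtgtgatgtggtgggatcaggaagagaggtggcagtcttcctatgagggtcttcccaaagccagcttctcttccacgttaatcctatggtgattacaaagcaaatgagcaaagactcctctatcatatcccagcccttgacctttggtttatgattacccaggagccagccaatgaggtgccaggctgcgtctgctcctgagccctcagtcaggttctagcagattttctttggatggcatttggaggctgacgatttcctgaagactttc
Mup21, chr4:62150792-62151091, minus strand: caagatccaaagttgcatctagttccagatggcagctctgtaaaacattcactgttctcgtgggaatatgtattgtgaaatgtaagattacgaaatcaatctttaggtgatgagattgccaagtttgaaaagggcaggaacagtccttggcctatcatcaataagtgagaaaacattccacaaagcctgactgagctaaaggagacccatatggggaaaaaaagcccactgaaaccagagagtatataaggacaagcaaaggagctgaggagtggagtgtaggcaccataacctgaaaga
Hsd3b5, chr3:98645485-98645784, minus strand: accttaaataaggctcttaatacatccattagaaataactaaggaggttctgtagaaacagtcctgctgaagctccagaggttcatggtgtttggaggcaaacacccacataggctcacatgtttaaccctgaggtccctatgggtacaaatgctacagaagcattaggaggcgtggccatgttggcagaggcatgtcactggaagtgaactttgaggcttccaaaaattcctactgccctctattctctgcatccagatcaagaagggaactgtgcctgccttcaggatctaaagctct
A1bg, chr15:60921221-60921520, minus strand: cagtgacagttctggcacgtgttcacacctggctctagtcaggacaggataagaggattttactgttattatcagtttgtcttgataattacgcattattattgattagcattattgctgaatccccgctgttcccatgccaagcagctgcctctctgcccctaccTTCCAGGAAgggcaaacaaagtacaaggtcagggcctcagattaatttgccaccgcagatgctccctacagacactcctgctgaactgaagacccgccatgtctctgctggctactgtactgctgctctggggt
Slc22a26, chr19:7802618-7802917, minus strand: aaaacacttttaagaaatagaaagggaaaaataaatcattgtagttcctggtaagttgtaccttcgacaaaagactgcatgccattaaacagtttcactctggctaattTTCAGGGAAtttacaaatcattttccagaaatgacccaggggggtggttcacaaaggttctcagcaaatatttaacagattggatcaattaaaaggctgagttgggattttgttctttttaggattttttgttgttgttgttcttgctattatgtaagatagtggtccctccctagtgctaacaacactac
Cyp2b13, chr7:26061245-26061544, plus strand: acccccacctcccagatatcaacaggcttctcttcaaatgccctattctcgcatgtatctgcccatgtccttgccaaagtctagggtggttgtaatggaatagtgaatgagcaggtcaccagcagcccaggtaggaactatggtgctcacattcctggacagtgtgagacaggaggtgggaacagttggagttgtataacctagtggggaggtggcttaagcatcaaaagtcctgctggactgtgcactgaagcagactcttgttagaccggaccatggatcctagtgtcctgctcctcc
The motif stood once in the A1bg window and once in the Slc22a26 window, and these letters are not in the other 4 windows. Over all called genes with an entry, 3 of 42 higher in males (7.14%) and 5 of 37 lower in males (13.5%) held the motif. It was in 8.59% of the 5284 tested autosomal genes with an entry and in 9.55% of all 27025 genes of the table. A match in this window is a description of the sequence and not evidence of binding.

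Among the secreted proteins, 9 of 90 tested genes were higher and 7 lower in males (background 0.748% and 0.791% of all tested genes, which is also the background of each family count that follows). The major urinary proteins are lipocalins that males excrete in urine as pheromone carriers. Of these, 5 of 7 tested members were higher in males, none was lower, and the median log2 fold change was 2.23. Mup5 passed the filter only through the males, which fixed its direction, so no family pattern is read from these counts. Of the 21 members in the table, 11 had no read in any WT liver and 3 had too few. Mup3 (chr4:62083476-62087342, minus strand) had 9410.1, 8071 and 10815 CPM in the WT males, against 4142, 3776, 3340.1 and 4729.6 CPM in the WT females (log2 fold change 1.24 ± 0.19, adjusted p = 0.00685). Its call was lost without WT male 3 (adjusted p = 0.0501). Mup21 (chr4:62147932-62150863, minus strand) had 338, 345 and 491 CPM in the WT males, against 15.6, 22.7, 9.19 and 11.8 CPM in the WT females (log2 fold change 4.72 ± 0.31, adjusted p = 6.21e-06). All males were above all females for both, and Mup21 held with each liver left out. Mup2 had 2.83, 12.1 and 3.55 CPM in the WT males, against 0.779, 0.523, 0.393 and 1.08 CPM in the WT females, with WT male 2 well above the other males (log2 fold change 3.16 ± 0.55, adjusted p = 0.014), and was lost without WT female 1 or 3 (adjusted p = 0.0514 to 0.0535). Mup5 had 0.650, 5.10 and 2.68 CPM in the WT males, against 0.416, 0.279, 0.442 and 0.421 CPM in the WT females (log2 fold change 2.86 ± 0.61, adjusted p = 0.0453), and was lost without any 1 liver other than WT male 1 (adjusted p = 0.102 to 0.18). Both of these low members rest on few reads, and their males were uneven. Mup9 had 11.9, 15.6 and 7.83 CPM in the WT males, against 3.64, 3.94, 2.06 and 4.30 CPM in the WT females (log2 fold change 1.76 ± 0.32, adjusted p = 0.017), and was lost without WT male 1 or WT female 1 (adjusted p = 0.0508 to 0.059). Mup11 and Mup17 had log2 fold changes of 2.23 and 1.49 but overlapped between the sexes and were not called. Mup2, Mup9, Mup11 and Mup17 share 78.2%, 79.1%, 77.8% and 78.1% of their 50-base windows with another gene, against 13.3% for Mup3 and 19.3% for Mup21. The division of reads among members so alike is uncertain. The summed level of the family was 8979, 10356 and 11647 CPM in the WT males (lowest, median, highest) and 3409, 4084 and 5084 CPM in the WT females, with no overlap, but Mup3 makes up most of it and it says little of the members so alike.

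The serpins, plasma protease inhibitors, were split: 2 of 12 tested members were higher, 1 was lower and 9 were not called. Serpina1e (chr12:103946931-103958975, minus strand), 1 of the mouse copies of alpha-1-antitrypsin, had 19179, 7690.3 and 20533 CPM in the WT males, against 3516, 3070.5, 1716 and 2007 CPM in the WT females (log2 fold change 2.62 ± 0.36, adjusted p = 0.00274). WT male 2 was the lowest male and still above every female. Its copies Serpina1b, Serpina1c and Serpina1d had log2 fold changes of -0.27, 0.26 and -0.17 and overlapped. Serpina12, also called vaspin, had 67.7, 64.0 and 63.8 CPM in the WT males, against 30.9, 22.1, 13.2 and 13.5 CPM in the WT females (log2 fold change 1.71 ± 0.28, adjusted p = 0.0109). Serpina6 (chr12:103646630-103657212, minus strand), corticosteroid-binding globulin, went the other way with 327, 250.02 and 423 CPM in the WT males, against 742, 788, 1044 and 1138 CPM in the WT females (log2 fold change -1.48 ± 0.23, adjusted p = 0.00696). For these 3 genes the sexes did not overlap and the calls held with each liver left out. Of the windows of Serpina1e 34.6% also occur in another gene, mainly Serpina1b.

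Of 20 tested complement components, 2 were higher and 1 was lower in males. C9 (chr15:6445327-6498751, plus strand) and C6 (chr15:4727175-4814967, plus strand) belong to the membrane attack complex. C9 had 908, 867 and 1069 CPM in the WT males, against 307, 246, 393 and 364 CPM in the WT females (log2 fold change 1.53 ± 0.19, adjusted p = 0.00122). C6 had 5.26, 6.71 and 8.10 CPM in the WT males, against 0.467, 0.697, 0.590 and 0.655 CPM in the WT females (log2 fold change 3.45 ± 0.32, adjusted p = 0.000123). Neither overlapped between the sexes, and both calls held with each liver left out. C8a and C8b of the same complex had log2 fold changes of 2.00 (adjusted p = 0.171) and 0.98 (adjusted p = 0.0951) with all males above all females, and were not called. Cfb, factor B of the alternative pathway, had 75.3, 88.3 and 109.9 CPM in the WT males, against 195, 180.2, 140.4 and 189 CPM in the WT females (log2 fold change -0.95 ± 0.19, adjusted p = 0.031). Its call was lost without any 1 liver other than WT female 3 (adjusted p = 0.0504 to 0.135), and 73.0% of its windows also occur in an overlapping gene model. C3, the central component, had 2914, 3181 and 3626 CPM in the WT males, against 4871, 5995, 6239 and 4605 CPM in the WT females, and its log2 fold change of -0.74 did not pass (adjusted p = 0.108).

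Of the acute phase and iron proteins, 4 of 19 tested were called lower in males and none higher. Of the 19, 17 had a negative log2 fold change, 15 without scaling factors (median -0.40). A1bg, described above, was 1 of the 4, and it passed the filter only through the females, which fixed its direction. Hamp2 (chr7:30922372-30924681, minus strand), a copy of the iron hormone hepcidin, had 12.8, 30.3 and 14.99 CPM in the WT males, against 127, 72.4, 274 and 204 CPM in the WT females (log2 fold change -3.12 ± 0.49, adjusted p = 0.0124). All males were below all females, and the call was lost without WT male 1 or 3 (adjusted p = 0.0604 to 0.08). Hepcidin itself, Hamp, had 262, 729 and 333 CPM in the WT males, against 205, 591, 448 and 549 CPM in the WT females, and the sexes overlapped (log2 fold change -0.02, adjusted p = 0.995). Lcn2, a lipocalin that binds bacterial siderophores, had 1.59, 1.89 and 1.41 CPM in the WT males, against 7.06, 9.23, 5.90 and 10.5 CPM in the WT females (log2 fold change -2.32 ± 0.31, adjusted p = 0.002). All males were below all females and the call held with each liver left out. Orm2, an orosomucoid, had 13.5, 11.8 and 15.5 CPM in the WT males, against 55.1, 19.6, 89.9 and 75.1 CPM in the WT females (log2 fold change -2.14 ± 0.43, adjusted p = 0.0385), and was lost without any 1 liver other than WT female 2 (adjusted p = 0.0824 to 0.21). None of the 10 tested apolipoproteins was called (1 at unadjusted p under 0.05). The 3 with the most reads, Apoa1, Apoa2 and Apob, had log2 fold changes of -0.14, -0.03 and -0.35 with overlap.

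Of 23 tested growth factors, hormones and their carriers, Serpina6 and Prlr were lower in males and none was higher. Prlr (chr15:10177238-10349180, plus strand), the prolactin receptor, had 3.72, 9.84 and 7.49 CPM in the WT males, against 30.5, 36.5, 21.9 and 21.6 CPM in the WT females (log2 fold change -1.97 ± 0.34, adjusted p = 0.0124). No male reached a female, but the call was lost without WT male 3 (adjusted p = 0.0644). Prlr was also the only gene called among 21 tested genes of growth hormone signalling and liver transcription factors, where the median log2 fold change was 0.07 and 8 genes were under an unadjusted p of 0.05. Of all 6953 tested genes, 694 were under that p. Ghr, the growth hormone receptor, had 27.5, 32.0 and 38.6 CPM in the WT males, against 26.4, 36.6, 23.5 and 31.3 CPM in the WT females, which overlapped (log2 fold change 0.15, adjusted p = 0.886). Several genes that carry the known pathway could not be compared. Jak2 and Bcl6 had no read in any WT liver, Stat5b had 2 reads in all males and 6 in all females, and Cux2 had 0 and 3. Socs2, a feedback inhibitor of growth hormone signalling, had 14 and 5 reads and did not pass the filter. Trim24, a transcriptional cofactor listed as female-high, had 1.30, 0.442 and 0.803 CPM in the WT males, against 3.32, 1.01, 1.97 and 3.79 CPM in the WT females, with overlap and no call (adjusted p = 0.297).

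**Figure D2:**
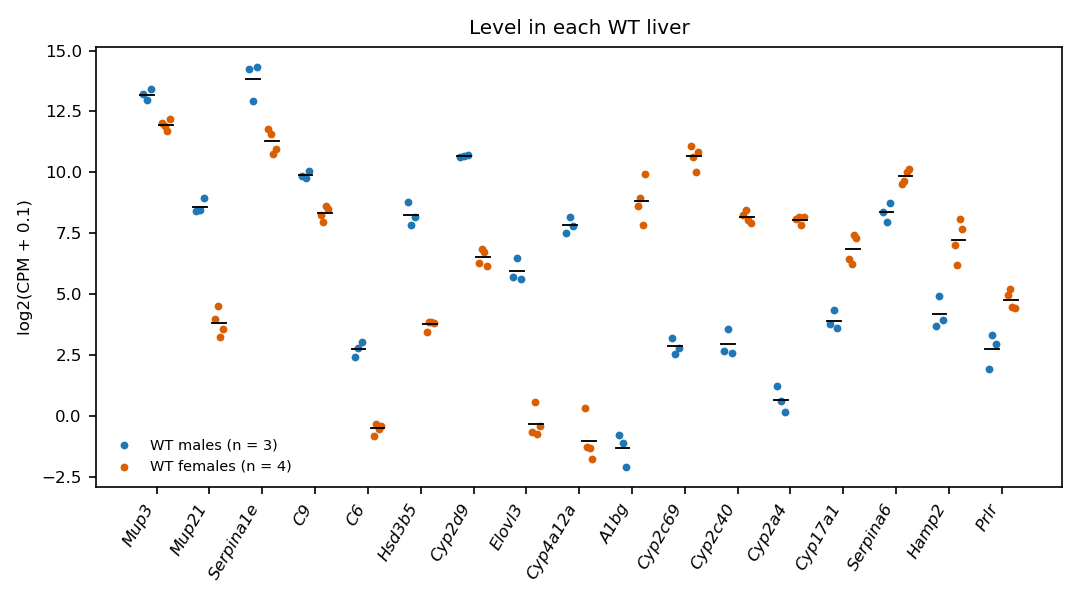
Level of 17 called genes in each WT liver, as log2(CPM + 0.1). Blue points are the 3 WT males and orange points the 4 WT females, and black bars are group means. For all 17 genes the points of the sexes do not overlap, with a wide gap for Cyp2d9 (1586 to 1662 CPM in males, 69.9 to 114 CPM in females) and a narrow one for Mup3 (8071 to 10815 CPM in males, 3340.1 to 4729.6 CPM in females).

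Steroid metabolism held 3 genes higher and 1 lower in males among 31 tested (background 0.748% and 0.791%). Hsd3b5 (chr3:98618634-98630252, minus strand), of the hydroxysteroid dehydrogenases and known in mouse liver as a steroid reductase, had 433, 228 and 288 CPM in the WT males, against 10.8, 14.5, 14.4 and 13.9 CPM in the WT females (log2 fold change 4.56 ± 0.25, adjusted p = 1.34e-06). It was the only 1 of 9 tested hydroxysteroid dehydrogenases to be called, and the call held with each liver left out. Hsd17b12 and Hsd3b3 had all males above all females but were not called (adjusted p = 0.275 and 0.487). Srd5a1 (chr13:69573449-69611442, minus strand), a steroid reductase that makes dihydrotestosterone, had 10.7, 7.39 and 8.63 CPM in the WT males, against 4.16, 4.01, 3.49 and 3.79 CPM in the WT females (log2 fold change 1.21 ± 0.24, adjusted p = 0.0294). Its call was lost without any 1 liver other than WT male 2 (adjusted p = 0.0522 to 0.135). Cyp17a1 (chr19:46667165-46673172, minus strand), the steroid hydroxylase and lyase on the way to androgens, was lower in males with 13.6, 20.3 and 11.9 CPM in the WT males, against 85.8, 75.5, 171 and 159 CPM in the WT females (log2 fold change -3.003 ± 0.35, adjusted p = 0.000741). The call held with each liver left out. In bile acid synthesis 1 of 11 tested genes was called: Scp2, a sterol carrier protein and peroxisomal thiolase, had 3.72, 31.7 and 5.62 CPM in the WT males, against 1.40, 1.39, 1.33 and 0.468 CPM in the WT females (log2 fold change 3.57 ± 0.73, adjusted p = 0.0463). WT male 2 held most of its reads, and the call was lost without any 1 liver other than WT male 1 and WT male 2 (adjusted p = 0.0528 to 0.158). Cyp8b1, Cyp27a1 and Slc27a5 of the same list had log2 fold changes of 0.16, 0.30 and -0.28 and were not called.

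The cytochromes P450 of the Cyp2 family changed in both directions. Cyp2d9 (chr15:82433437-82456845, plus strand), a testosterone hydroxylase of male mouse liver, had 1586, 1610.0 and 1662 CPM in the WT males, against 78.0, 114, 107 and 69.9 CPM in the WT females (log2 fold change 4.13 ± 0.21, adjusted p = 9.77e-07), and was the only 1 of 7 tested Cyp2d genes to be called. Its neighbour Cyp2d10 had 119, 122 and 138 CPM in the WT males, against 122, 126, 124 and 116 CPM in the WT females, a log2 fold change of 0.05. The males of Cyp2d9 thus lay far above its females while those of Cyp2d10 overlapped. Cyp2a4 (chr7:26307169-26315088, plus strand), a testosterone hydroxylase of female liver, had 2.24, 1.41 and 1.00 CPM in the WT males, against 268, 282, 231 and 284 CPM in the WT females (log2 fold change -7.42 ± 0.30, adjusted p = 1.79e-07), while Cyp2a5 and Cyp2a12 overlapped between the sexes. Cyp2b9 had 0, 0.321 and 0 CPM in the WT males, against 6.18, 11.5, 9.73 and 6.92 CPM in the WT females (log2 fold change -5.95 ± 0.70, adjusted p = 0.000886), and with Cyp2b13 made 2 of 3 tested Cyp2b genes lower in males. Both Cyp2b genes passed the filter only through the females, which fixed their direction, so no pattern of the Cyp2b genes is read. All 8 reads of Cyp2b9 in males were in WT male 2, and without that liver the fitted log2 fold change was -10.45, which depends on the prior count. Cyp2b10, the member known for its induction by phenobarbital, had 39.4, 5.46 and 8.10 CPM in the WT males, against 22.9, 27.8, 88.0 and 64.8 CPM in the WT females and was not called (adjusted p = 0.573). All 4 called genes of these groups held with each liver left out. Of the windows of Cyp2d9 21.8%, and of those of Cyp2a4 38.0%, also occur in another gene, mainly Cyp2d12 and Cyp2a5.

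In the Cyp2c cluster of chromosome 19, 1 of 13 tested genes was higher in males and 4 were lower. Cyp2c69 (chr19:39842814-39886799, minus strand) had 9.04, 5.75 and 6.83 CPM in the WT males, against 2191, 1589, 1036 and 1849 CPM in the WT females (log2 fold change -7.86 ± 0.36, adjusted p = 3.77e-07). Cyp2c40 (chr19:39767071-39812814, minus strand), an arachidonic acid hydroxylase, had 6.14, 11.9 and 5.89 CPM in the WT males, against 305, 352, 264 and 241 CPM in the WT females (log2 fold change -5.18 ± 0.31, adjusted p = 2.98e-06). These 2 genes had the widest gaps of the family, and no male of either came near a female. Cyp2c39 had 3.25, 3.86 and 4.95 CPM in the WT males, against 18.4, 19.96, 17.7 and 15.8 CPM in the WT females (log2 fold change -2.16 ± 0.24, adjusted p = 0.000444). Cyp2c37 was lower in males by less, with 195, 232 and 222 CPM in the WT males, against 820.3, 1038, 507 and 701 CPM in the WT females (log2 fold change -1.83 ± 0.24, adjusted p = 0.0017). Cyp2c29 (chr19:39269405-39330713, plus strand), a member of the same cluster, was higher in males with 311, 294 and 269 CPM in the WT males, against 142, 167, 137 and 149.8 CPM in the WT females (log2 fold change 0.97 ± 0.15, adjusted p = 0.00686). None of the 5 genes overlapped between the sexes, and all 5 calls held with each liver left out. Cyp2c70 and Cyp2c50 had log2 fold changes of -0.11 and 0.10 and overlapped. Cyp2c69 and Cyp2c40 share 54.3% and 60.3% of their windows, mainly with each other, so the split between them is uncertain. The summed level of the family was 739, 811 and 874 CPM in the WT males (lowest, median, highest) and 2234, 3346 and 3775 CPM in the WT females.

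In the Cyp3a family, 1 of 6 tested genes was called higher and 2 lower in males. The 2 lower genes, Cyp3a44 and Cyp3a41b, passed the filter only through the females, which fixed their direction. No family pattern is read from these counts. Cyp3a11 (chr5:145854426-145879964, minus strand), a leading drug-metabolising enzyme of mouse liver, had 5491, 6742 and 6936 CPM in the WT males, against 3721, 3313, 3964 and 2830.5 CPM in the WT females (log2 fold change 0.89 ± 0.19, adjusted p = 0.0395). The males were all above the females, but the call was lost without any 1 of the 7 livers (adjusted p = 0.0711 to 0.196). Cyp3a44 (chr5:145773983-145805874, minus strand), with 4 reads in all males, had 0, 0.0804 and 0.134 CPM in the WT males, against 19.7, 15.8, 4.23 and 28.6 CPM in the WT females (log2 fold change -7.81 ± 0.88, adjusted p = 0.000953), and held with each liver left out. Cyp3a41b had 1 read in all males and 158 in all females, a ratio of 100-fold (95% exact interval 17.7 to 3970) lower in males (adjusted p = 0.0181). Its call was lost without WT male 1, 2 or 3 (adjusted p = 0.0517 to 0.0962), and without WT female 1, 2 or 4 it did not pass the filter. Of its windows 93.5% also occur in Cyp3a41a, which has no read in the table. In the Cyp4 family, 2 of 9 tested genes were higher in males, Cyp4a12a and Cyp4a12b, which passed the filter only through the males. Cyp4a10 and Cyp4a14, fatty acid hydroxylases and classical targets of PPARA, had log2 fold changes of -1.63 and -2.71 with overlap and no call (adjusted p = 0.438 and 0.252). None of the 2 Cyp2j and 6 other Cyp1 and Cyp2 genes tested was called (0 and 2 at unadjusted p under 0.05). Those with the most reads, Cyp2e1, Cyp2f2 and Cyp1a2, had log2 fold changes of 0.01, 0.42 and 0.08, and Cyp2j5 and Cyp2j6 of the Cyp2j genes had 0.21 and 0.07.

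Among the conjugating enzymes, 4 of 10 tested sulfotransferases were lower in males and none was higher. Sult1e1, Sult2a2, Sult2a4, Sult2a5 and Sult2a6 had 1 to 14 reads in all males together and passed the filter only through the females, which fixed their direction, so no sign or median over the family is read. Its summed level overlapped between the sexes, with 86.1, 118 and 127 CPM in the WT males (lowest, median, highest) and 127, 134 and 233 CPM in the WT females (exact permutation test, two-sided p = 0.114). The 4 were of the Sult2a subfamily, which sulfates hydroxysteroids and bile acids. Sult2a7 had 2.07, 1.65 and 2.34 CPM in the WT males, against 17.8, 18.8, 15.1 and 20.2 CPM in the WT females (log2 fold change -3.16 ± 0.25, adjusted p = 3.45e-05), and held with each liver left out. Sult2a2 had 0.354, 0.281 and 0.0669 CPM in the WT males, against 14.3, 2.61, 10.8 and 45.8 CPM in the WT females (log2 fold change -6.21 ± 1.14, adjusted p = 0.0376). The females ranged widely and the call was lost without WT male 1, 2 or 3, or WT female 1 (adjusted p = 0.0729 to 0.275). Sult2a5 had 2 reads in all males and 158 in all females, and Sult2a4 had 1 and 159. Their ratios were 50-fold (95% exact interval 13.6 to 416) and 101-fold (95% exact interval 17.8 to 4000) lower in males (adjusted p = 0.0209 and 0.0188). The call of Sult2a5 was lost without any 1 liver other than WT female 2 and WT female 3 (adjusted p = 0.0541 to 0.108). That of Sult2a4 was lost without WT male 1, 2 or 3 (adjusted p = 0.0576 to 0.106), and the gene did not pass the filter without WT female 1, 3 or 4. Sult1d1, with more reads, overlapped (log2 fold change -0.12). Of the windows of Sult2a2 62.1% also occur in another gene, mainly Sult2a1.

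The UDP-glucuronosyltransferases, which conjugate steroids, bilirubin and drugs, had 3 of 16 tested members higher and 1 lower in males. Ugt2b1 had 619.5, 839 and 767 CPM in the WT males, against 289, 313, 285 and 332 CPM in the WT females (log2 fold change 1.28 ± 0.16, adjusted p = 0.00137), and held with each liver left out. All males lay above all females. Ugt2b38 had 16.3, 4.42 and 7.63 CPM in the WT males, against 1.87, 1.32, 0.442 and 1.26 CPM in the WT females (log2 fold change 2.94 ± 0.51, adjusted p = 0.0134), and was lost without WT male 1 or WT female 4 (adjusted p = 0.0544 to 0.0571). Ugt2b35 had 149.5, 139 and 128 CPM in the WT males, against 61.6, 79.3, 81.9 and 73.6 CPM in the WT females (log2 fold change 0.91 ± 0.16, adjusted p = 0.017), and was lost without WT male 1 or 3, or WT female 1 or 4 (adjusted p = 0.0585 to 0.083). Both were higher in every male than in any female. Ugt2b37 was lower in males with 2.30, 2.21 and 1.34 CPM in the WT males, against 16.5, 8.12, 4.03 and 13.5 CPM in the WT females (log2 fold change -2.42 ± 0.47, adjusted p = 0.0233), and was lost without any 1 liver other than WT female 2 and WT female 3 (adjusted p = 0.0663 to 0.14). The bilirubin enzyme Ugt1a1 had 306, 275 and 322 CPM in the WT males, against 374, 489.6, 469 and 433 CPM in the WT females, all males below all females, but was not called (adjusted p = 0.186). Of 14 tested glutathione S-transferases, which detoxify by adding glutathione, 2 were higher in males. Gstp1 had 259.7, 826 and 239 CPM in the WT males, against 24.0, 70.4, 25.6 and 28.2 CPM in the WT females (log2 fold change 3.57 ± 0.56, adjusted p = 0.0169), and was lost without WT female 1 or 4 (adjusted p = 0.0553 to 0.0655). Gstm3 had 83.4, 46.8 and 92.3 CPM in the WT males, against 34.6, 25.6, 35.8 and 39.1 CPM in the WT females (log2 fold change 1.13 ± 0.25, adjusted p = 0.0471), and was lost without any 1 liver other than WT male 2 (adjusted p = 0.0832 to 0.251). WT male 2 and WT female 2 were the highest of their sex for Gstp1 and the lowest for Gstm3. The copy Gstp2 shares 54.3% of its windows with another gene, mainly Gstp1, and was not called (adjusted p = 0.115).

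Of 11 tested carboxylesterases, which cleave ester drugs, 1 was higher and 1 lower in males. Ces2c had 41.5, 28.0 and 18.9 CPM in the WT males, against 7.89, 4.74, 5.99 and 5.75 CPM in the WT females (log2 fold change 2.28 ± 0.29, adjusted p = 0.0013), and held with each liver left out. Ces1c, a secreted plasma esterase of the mouse, had 3166, 3038 and 3689.5 CPM in the WT males, against 5622, 5845, 5628 and 6001 CPM in the WT females (log2 fold change -0.81 ± 0.17, adjusted p = 0.0385). The sexes did not overlap, but the call was lost without any 1 of the 7 livers (adjusted p = 0.0599 to 0.174). Aldehyde, alcohol and aldo-keto enzymes, which oxidise or reduce carbonyl groups, had 2 of 36 tested members higher in males. Aldh1a1, which makes retinoic acid, had 1616, 1699 and 1463 CPM in the WT males, against 742, 696, 992 and 897 CPM in the WT females (log2 fold change 0.94 ± 0.17, adjusted p = 0.0191), and was lost without WT male 1 or 3, or WT female 1 or 4 (adjusted p = 0.0624 to 0.0827). Aox1, aldehyde oxidase, had 65.7, 67.1 and 69.7 CPM in the WT males, against 44.7, 39.5, 29.6 and 31.0 CPM in the WT females (log2 fold change 0.90 ± 0.19, adjusted p = 0.0395), and was lost without any 1 liver other than WT female 1 and WT female 2 (adjusted p = 0.0552 to 0.179). Neither overlapped between the sexes. Of 25 tested organic ion and ABC transporters only Slc22a26 was called. Slco1a1, an organic anion carrier of male mouse liver, had 385, 545 and 571 CPM in the WT males, against 123.05, 277, 78.8 and 93.5 CPM in the WT females and missed the threshold (log2 fold change 1.81, adjusted p = 0.0686), as did Abcb1b (2.85, adjusted p = 0.0542).

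**Figure D3:**
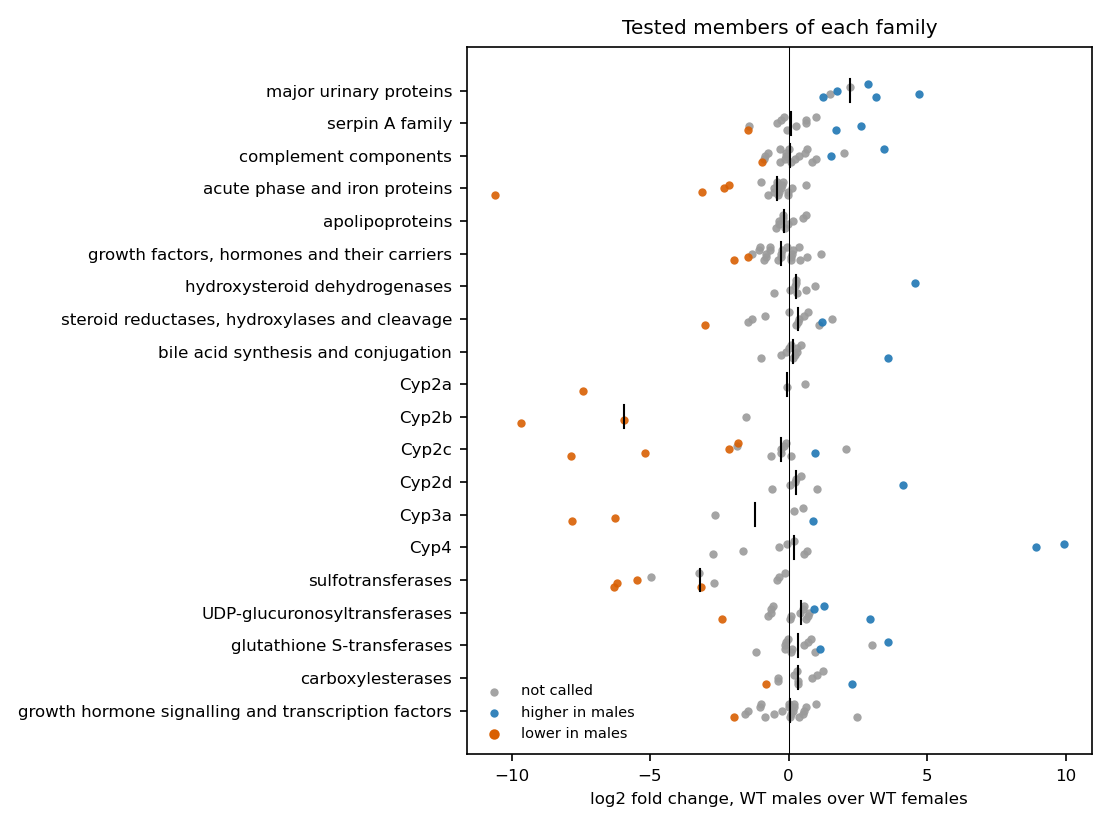
Log2 fold change in WT males over WT females (x axis) of every tested member of 20 gene families (rows). Blue points are genes higher and orange points genes lower in males at edgeR adjusted p under 0.05, grey points were not called, and black bars are family medians. The major urinary proteins lie to the right of 0, with Mup5 having passed the filter only through the males. The sulfotransferases lie to the left with several that passed the filter only through the females. Cyp2c, Cyp3a and the UDP-glucuronosyltransferases hold called genes on both sides. The called Cyp3a genes to the left and the called Cyp2b genes also passed the filter only through the females.

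Against the lists of genes already known to be dimorphic, 18 of 25 tested genes of the male-high panel were higher in WT males and none was lower (background 0.748%), and 20 of 34 tested genes of the female-high panel were lower and none was higher (background 0.791%). The panels were put together with earlier results of these data known and are not independent evidence. Any member that passed the filter only through the sex where it was high also had its direction fixed. For such members the lack of calls against the panels is not a result. Of the 37 male-high genes, 7 had no read in any WT liver and 5 had too few, and of the 56 female-high genes, 17 had none and 5 too few. Selenbp2, a selenium-binding protein, had 305, 314 and 288 CPM in the WT males, against 44.5, 55.9, 65.3 and 42.7 CPM in the WT females (log2 fold change 2.54 ± 0.19, adjusted p = 1.72e-05). Keg1 had 197, 212 and 195 CPM in the WT males, against 74.1, 76.1, 93.7 and 80.0 CPM in the WT females (log2 fold change 1.32 ± 0.16, adjusted p = 0.00084). Both held with each liver left out. Nudt7, a peroxisomal coenzyme A hydrolase, had 5.14, 5.26 and 4.08 CPM in the WT males, against 1.82, 1.22, 1.33 and 1.82 CPM in the WT females (log2 fold change 1.64 ± 0.31, adjusted p = 0.0188), and was lost without any 1 liver other than WT female 1 and WT female 2 (adjusted p = 0.0517 to 0.0768). No male of these 3 genes was as low as a female. Of the female-high genes not yet given, Atp6v0d2, a proton pump subunit, had 0.827, 0.924 and 0.937 CPM in the WT males, against 7.32, 7.52, 6.53 and 8.61 CPM in the WT females (log2 fold change -3.06 ± 0.29, adjusted p = 0.00013), and held with each liver left out. Nipal1, of a family of magnesium transporters, had 1.24, 1.17 and 1.74 CPM in the WT males, against 9.51, 11.3, 3.64 and 5.24 CPM in the WT females (log2 fold change -2.43 ± 0.43, adjusted p = 0.0155), and was lost without WT male 1 or 3, or WT female 1 (adjusted p = 0.0541 to 0.0693). For both every male was below every female. Egfr of the male-high panel had a log2 fold change of -0.37, and Apoa4 and Ephx1 of the female-high panel 0.64 and 0.47. These 3 signs run against the panels, and none of the 3 was called (adjusted p = 0.895, 0.828 and 0.592).

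Of 13 tested circadian and fasting genes, only Fasn, fatty acid synthase, was called, with 242, 205 and 184 CPM in the WT males, against 422, 716, 691 and 324 CPM in the WT females (log2 fold change -1.35 ± 0.28, adjusted p = 0.0342). Its call was lost without any 1 liver other than WT female 4 (adjusted p = 0.0541 to 0.186). Scd1 and Pck1 overlapped between the sexes (log2 fold change 0.44 and 0.29), and none of 11 tested immediate early and heat shock genes was called (1 at unadjusted p under 0.05), those with the most reads being Hsp90aa1, Zfp36 and Junb with log2 fold changes of 0.12, -0.08 and 0.46. By position, chromosome 4, which holds the Mup and Cyp4a clusters, had 12 of the 52 genes higher in males and 5 of the 55 lower among 446 tested, against 0.748% and 0.791% of all tested genes. Chromosome 7, with the Cyp2a, Cyp2b and Sult2a clusters, had 11 lower and 1 higher among 512. Chromosome 19, with the Cyp2c cluster, had 6 each way among 284. Neighbouring copies share reads, so these are not independent genes. Predicted loci and Riken names made 6 of the 52 and 9 of the 55. The largest were Gm12718 (log2 fold change 6.63, adjusted p = 7.55e-05) and Gm35696 (log2 fold change 2.98, adjusted p = 0.0236) among those higher, of which Gm35696 was lost without any 1 liver other than WT male 1 and WT male 2 (adjusted p = 0.0559 to 0.186). Among those lower, 4930520P13Rik had no read in males and was at least 27-fold lower, and Gm42308 had 2 reads in males and 299 in females, a ratio of 94.6-fold (95% exact interval 26.0 to 785).

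Other called genes lay outside these lists, and those that follow were chosen after their values were seen. Fitm1, which takes part in forming lipid droplets, had 27.4, 39.2 and 23.3 CPM in the WT males, against 5.71, 5.78, 5.601 and 3.65 CPM in the WT females (log2 fold change 2.53 ± 0.25, adjusted p = 0.000228). Ttc39c had 297, 346 and 241 CPM in the WT males, against 56.1, 81.3, 74.3 and 68.0 CPM in the WT females (log2 fold change 2.07 ± 0.19, adjusted p = 0.000105). Both were higher in every male. Hao1, the glycolate oxidase of liver peroxisomes, had 258, 280.3 and 304 CPM in the WT males, against 161, 154, 122.9 and 115 CPM in the WT females (log2 fold change 1.02 ± 0.17, adjusted p = 0.0113), and was lost without WT male 3 (adjusted p = 0.0739). Tdo2, which opens the ring of tryptophan, had 1345, 2155 and 1927 CPM in the WT males, against 993, 610.3, 868 and 854 CPM in the WT females (log2 fold change 1.12 ± 0.22, adjusted p = 0.0227), and was lost without WT male 2 or 3, or WT female 3 or 4 (adjusted p = 0.0504 to 0.125). The pseudogene Mup-ps12 was higher too (log2 fold change 1.97 ± 0.31, adjusted p = 0.0076), and 76.4% of its windows also occur in another gene. In the other direction, Ccnd1, the cyclin that starts the cell cycle, had 0.354, 0.161 and 0.201 CPM in the WT males, against 2.08, 2.96, 2.36 and 1.87 CPM in the WT females (log2 fold change -3.28 ± 0.49, adjusted p = 0.00527). Nt5e, the ectoenzyme that makes adenosine from AMP, had 3.25, 5.79 and 2.61 CPM in the WT males, against 36.3, 42.7, 27.9 and 26.2 CPM in the WT females (log2 fold change -3.08 ± 0.32, adjusted p = 0.000288). Every male was below every female in both. Zbp1, a sensor of viral nucleic acid, had 2.66, 1.65 and 1.67 CPM in the WT males, against 8.83, 7.66, 8.84 and 9.87 CPM in the WT females (log2 fold change -2.14 ± 0.28, adjusted p = 0.00198). Ctsc, a lysosomal protease, had 33.7, 30.5 and 26.6 CPM in the WT males, against 78.4, 94.1, 82.6 and 96.0 CPM in the WT females (log2 fold change -1.54 ± 0.18, adjusted p = 0.000712). Apart from Hao1 and Tdo2, these calls held with each liver left out.

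Markers of other liver cells were mostly at lower levels in males. All 7 tested Kupffer cell and macrophage markers, all 6 of sinusoidal endothelium, all 7 of stellate cells and fibroblasts and all 4 erythroid genes had negative log2 fold changes, with medians of -0.90, -0.49, -1.57 and -1.75. Of all 6953 tested genes, 3404 had a negative log2 fold change. Without scaling factors 5 of the 6 endothelial markers were negative, and without WT female 2 only 4 were, with a median of -0.29. Without WT female 4, 3 of the 4 erythroid genes were negative, with a median of -0.59. The 4 erythroid genes are globin genes that share 53.2% to 89.3% of their windows with another gene, so they are not separate signs. In IDH2 KO livers 0 of the 4 had the same sign. Of all these markers only Col1a2, a collagen chain, was called, with 3.43, 3.90 and 1.41 CPM in the WT males, against 8.73, 10.1, 14.2 and 7.49 CPM in the WT females (log2 fold change -1.78 ± 0.37, adjusted p = 0.0382), and it was lost without any 1 liver other than WT male 2 (adjusted p = 0.0631 to 0.122). The summed stellate cell and fibroblast list was 11.6, 17.8 and 27.7 CPM in the WT males (lowest, median, highest) and 39.4, 50.7 and 72.9 CPM in the WT females, with no overlap (exact permutation test, two-sided p = 0.0571). The Kupffer cell and macrophage markers with the most reads, Clec4f, C1qa and Cd5l, had log2 fold changes of -0.66, -0.90 and -0.85, and those of sinusoidal endothelium, Stab2, Oit3 and Clec4g, had -0.51, -0.51 and -0.08, none of them called. The Kupffer cell and macrophage list was 159.7, 216 and 226 CPM in the WT males (lowest, median, highest) and 156, 399 and 557 CPM in the WT females, and it overlapped (exact p = 0.229). The sinusoidal endothelium list overlapped too, with 62.5 to 73.9 CPM in the WT males and 44.7 to 114 CPM in the WT females (exact p = 0.229). So did the erythroid list, with 4.34 to 48.8 CPM and 19.7 to 141 CPM (exact p = 0.457). Dcn and C1qc of these lists had no read in any WT liver. The part of these cells in the lower levels of Lcn2, Cfb and Col1a2 in males was not tested.

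Ighm, the immunoglobulin heavy chain of B cells, was the 1 gene called higher in males among 5 tested T, NK and B cell markers, with 117, 31.4 and 31.2 CPM in the WT males, against 12.2, 8.57, 10.7 and 7.67 CPM in the WT females (log2 fold change 2.61 ± 0.45, adjusted p = 0.0184). Its call held without WT male 1, the highest liver, and was lost without WT female 1, 2, 3 or 4 (adjusted p = 0.0565 to 0.0652). The other B cell markers were not higher in males. Cd79a had 0.354, 0.201 and 0 CPM in the WT males, against 1.30, 0.697, 0.0983 and 0.795 CPM in the WT females, and Ms4a1 had 3 reads in all males and 34 in all females. Of the 5 bile duct markers 2 were tested, and both had negative log2 fold changes (median -0.36) and were not called (0 at unadjusted p under 0.05). WT male 1 also stood apart in the summed level of the bile duct list, most of it Epcam. It had 64.3 CPM, against 1.65 and 1.67 CPM in the other WT males and 0.557 to 6.63 CPM in the females. Clec2h, a C-type lectin, was highest in WT male 1 too, with 27.9, 6.27 and 9.64 CPM in the WT males, against 0.935, 0.592, 1.92 and 1.82 CPM in the WT females (log2 fold change 3.48 ± 0.56, adjusted p = 0.0113). Its call held without WT male 1 and was lost without WT female 1 (adjusted p = 0.051). The part of other cells in Ighm and Clec2h was not tested.

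**Figure D4:**
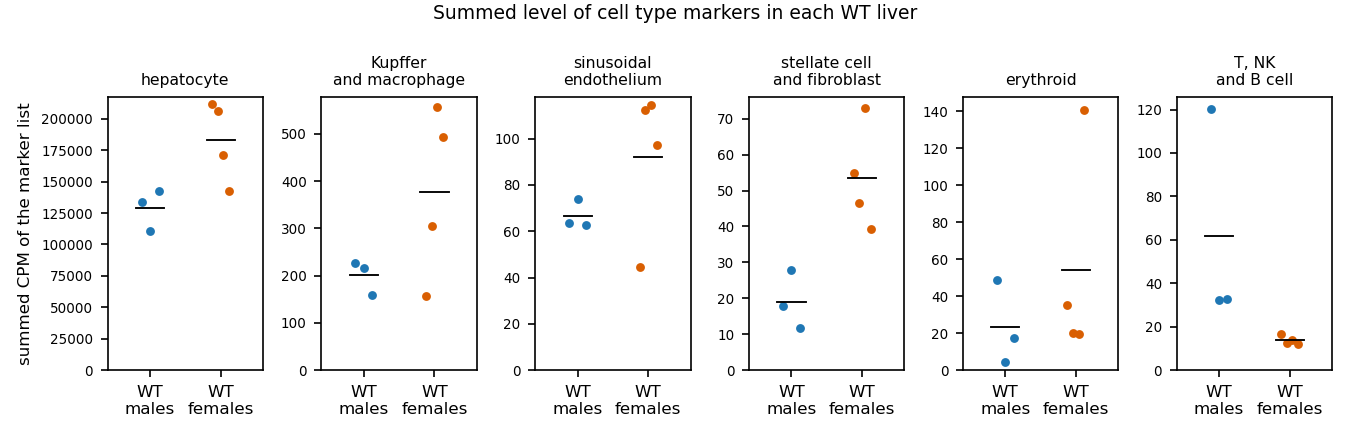
Summed level (CPM) of 6 lists of cell type markers in each WT liver, with the WT males in blue and the WT females in orange, black bars at group means and each y axis starting at 0. The stellate cell and fibroblast list is lower in all 3 males than in all 4 females, and the T, NK and B cell list, which is mostly Ighm, is higher in all 3 males.

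The same contrast was then read in the IDH2 KO livers, 2 males and 3 females that the WT comparison did not use. The CPM of WT and IDH2 KO livers were scaled in separate fits, so CPM set side by side between genotypes, here and below, are not on a common scale. Idh2 itself had 64.4, 38.9 and 75.5 CPM in the WT males, against 82.3, 49.4, 89.1 and 111 CPM in the WT females, and 0.0415 to 0.317 CPM in the IDH2 KO livers. IDH2 KO female 3 had 8531 genes with reads, against 11303 or more in the other IDH2 KO livers. Its summed major urinary proteins had 9653 CPM, against 1058 and 2231 CPM in the other IDH2 KO females. The IDH2 KO males had 8924 and 12084 CPM. Its summed Cyp2d genes had 1662 CPM, against 563 and 499 CPM, and the males 1203 and 1756 CPM. The Cyp2c sum went with the other females, at 4399 CPM against 2602 and 3718 CPM, and the males had 663 and 515 CPM. So did the sulfotransferase sum. The part of this liver's levels in the calls was not tested. Of the 52 genes higher in WT males, 51 could be tested in IDH2 KO livers and 50 had the same sign, and of the 55 genes lower, all 55 had the same sign. Over all autosomal genes tested in both genotypes, the sign was the same in 64.6%. Some of the called genes, such as A1bg, Sult2a2 and Sult2a5, passed the filter in IDH2 KO livers only through the females. That fixed their direction there, so these sign counts and the calls that follow are a description. The median log2 fold change of the 51 genes was 1.97 in WT and 2.05 in IDH2 KO livers, and that of the 55 genes was -2.43 and -2.55. By edgeR in the 5 IDH2 KO livers, 2 of the 51 were called higher (background 0.0284% of 7032 genes) and 6 of the 55 lower (background 0.128%). They were Hsd3b5 and Cyp2d9, and A1bg, Cyp2a4, Cyp2c69, Sult2a2, Sult2a4 and Sult2a5. Without IDH2 KO female 3, 17 of 51 and 37 of 54 were called (background 1.18% and 1.57% of 7025 genes). Without any other IDH2 KO liver no autosomal gene was called by edgeR (110 to 305 at unadjusted p under 0.05).

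The size of the sex contrast was not shown to differ between the genotypes. In the interaction test over all 12 livers, edgeR called none of 8015 autosomal genes (248 at unadjusted p under 0.05) and DESeq2 called 10. The smallest adjusted p by edgeR, 0.0779, belonged to Hsd3b5, which had 149 and 332 CPM in the IDH2 KO males, against 0.623, 1.02 and 1.09 CPM in the IDH2 KO females. By these separately scaled CPM, every IDH2 KO female lay below every WT female, and the IDH2 KO males overlapped the WT males. Sult2a2 had 0.181 and 0.311 CPM in the IDH2 KO males, against 279, 159 and 200.4 CPM in the IDH2 KO females, above the 2.61 to 45.8 CPM of the WT females, with an interaction adjusted p of 1.00. Cyp2a4 had 1.495 and 1.76 CPM in the IDH2 KO males, against 216, 272 and 376 CPM in the IDH2 KO females, and A1bg had 0.544 and 0.156 CPM in the IDH2 KO males, against 216, 247 and 144 CPM in the IDH2 KO females. Ighm was the gene whose sign turned, with 11.7 and 4.46 CPM in the IDH2 KO males, against 27.2, 17.6 and 17.97 CPM in the IDH2 KO females (log2 fold change -1.37), and its interaction had an adjusted p of 0.30.

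**Figure D5:**
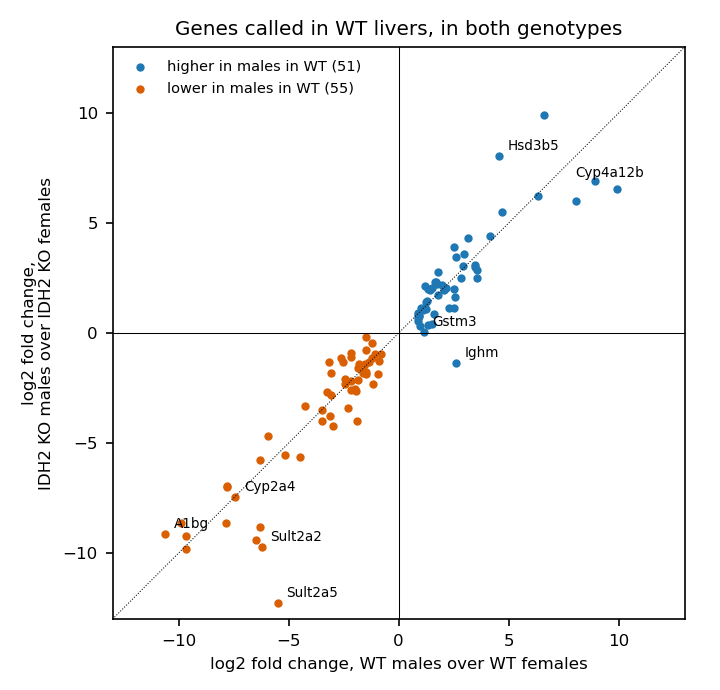
Log2 fold change of males over females in WT livers (x axis) and in IDH2 KO livers (y axis) for the called autosomal genes tested in both, with the line of equal change dotted. Blue points were higher and orange points lower in WT males. All lie in the same quadrant in both genotypes except Ighm, and the fitted values of genes with no read in 1 sex, such as Sult2a5 in IDH2 KO males, depend on the prior count. Genes that passed the filter only through 1 sex had their direction fixed.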

How the data were processed

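Liver RNA of each mouse was sequenced as 50 bp single-end reads. The authors deposited raw counts of reads per gene symbol, used here as they stand, and the submitters' notes name FastQC and GRCm38.p5. The aligner, the counter and the treatment of strand and of multiply mapped reads were not given in the sources used here. A filtered table of the authors served only as an alternative list of genes, and no per-sample column was left out (0 unused). Genes were placed by GENCODE M21 (26905 rows) or RefSeq symbol or synonym (6654 and 561), and 2112 unplaced rows stayed out of the autosomal counts.

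Counts of the 7 WT livers were fitted with edgeR 4.0.16 (R 4.3.3), using filterByExpr (minimum count 10, total 15), TMM scaling, the robust quasi-likelihood test and Benjamini-Hochberg adjustment over 7453 genes of all chromosomes. IDH2 KO livers were fitted likewise, and the difference between genotypes in all 12. DESeq2 1.42.0 and limma 3.58.1 on log2 RPM (reads per 1000000) were alternatives, with the other alternatives listed in the closing section. The script recovered known changes in simulated data. Single values were compared by an exact permutation test, two-sided. Intervals and bounds cover counting error only, and a count of 0 was taken to allow 3 reads. Depth was 17055853 to 24084696 reads a WT liver. Shared sequence was measured as the share of 50-base transcript windows found in another gene.

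The members and lists were chosen with earlier results of these data known. Genes were named by a rule: the 12 of largest change in each direction with a mean of at least 1 CPM and groups apart, up to 4 called members of each list in each direction or else the 3 with the most reads, the called members of the panels and those against them, and the 2 largest predicted loci each way. Some genes that meet the rule are not reported here.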

Additional observations from a re-analysis of the deposited data

Results flagged for a closer look

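Of 88 gene values and 5 library values tested in the 4 WT females, 8 had 1 female far from the other 3 by Dixon's ratio, where chance gives about 1 in 20. That rate does not apply to Cyp4a12b and Nat8f5. With 0 CPM in the other 3 females, any read in 1 female gives the largest ratio. WT female 1 had 10.8 CPM of Hsd3b5, against 13.9 to 14.5 CPM in the other females. The same liver had 1.14 CPM of Cyp4a12a, against 0.187 to 0.314 CPM, and 0.156 CPM of Cyp4a12b, against 0 in the others. WT female 2 had 0.279 CPM of Mup5, against 0.416 to 0.442 CPM, and 70.4 CPM of Gstp1, against 24.0 to 28.2 CPM. WT female 3 had 0.147 CPM of Nat8f5, against 0 in the others. WT female 4 had 0.468 CPM of Scp2, against 1.33 to 1.40 CPM, and 3.65 CPM of Fitm1, against 5.601 to 5.78 CPM. All 8 were among the 52 genes called higher in males, none of which overlapped between males and females.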

How the results depend on the processing

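The WT counts of 52 genes higher and 55 lower in males stayed within 1.5 times under RLE size factors (53 and 55), without mitochondrial transcripts, without the 10 most abundant genes, with the authors' filtered table, without X and Y genes, without robust estimation and after thinning. Without scaling factors, which moved the median of all genes by 0.11 on the log2 scale, 36 were higher and 33 lower. With no filter on low counts they were 142 and 138, with all 12 livers in 1 fit 23 and 29, and by DESeq2 91 and 116. DESeq2 called all 107 genes. Limma gave 34 and 34 on log2(RPM + 1) and 36 and 34 on log2(RPM + 0.5). A gene-by-gene test with unequal variances on log2(RPM + 1) gave 0 and 1 (369 genes at unadjusted p under 0.05). Leaving out 1 WT liver gave 30 to 57 higher and 28 to 57 lower, and 23 and 27 of the called genes passed with each liver left out. Without both libraries numbered 2, 73 and 68 were called. The cause of these shifts was not tested. In IDH2 KO livers the counts of 2 higher and 9 lower were 29 and 29 with all 12 livers in 1 fit. Leaving out 1 IDH2 KO liver gave 0 to 83 higher and 0 to 110 lower, a lone male being assumed to vary like the other group. For the difference between genotypes edgeR called 0 (248 at unadjusted p under 0.05) and DESeq2 called 7 with a larger and 3 with a smaller log2 fold change in IDH2 KO livers. By edgeR, leaving out 1 of the 12 livers gave 0 to 1 each way. The 107 called genes kept their sign under each of the 23 alternatives in which they could be tested.

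Livers of the same replicate number did not all vary together (correlations of -0.0295, 0.431 and 0.0394 for numbers 1, 2 and 3, that of number 2 being the highest of the 12 male and female combinations), and what a number marks is not stated. With the replicate block 39 genes were higher and 47 lower, and 34 and 41 of the called genes were among them. Depth limits genes with few reads in 1 sex. Those with 3 or fewer are given as bounds or with counting intervals, and others such as Cyp3a44 (4 reads in males) and Cyp2b9 (8 reads) as fitted values, while 7909 autosomal rows held too few reads to test.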
